A study of Pan troglodytes with 8 samples.

Results

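The 10 genes described here encode regulators of splicing and RNA binding that act in neurons: SRRM4, RBFOX1, RBFOX2, RBFOX3, NOVA1, NOVA2, ELAVL2, ELAVL4, PTBP1 and PTBP2. They were chosen by name, with earlier results of these data known. Their accessible regions are all rows of the deposited count table that give a member as the closest gene, at any distance. This rule found 84 of 218080 rows and 10 of 41376 closest genes. A single row, at RBFOX3, had no chimpanzee identifier and a count of 0, so 83 regions were measured. RBFOX3 held 37 of them, NOVA2 held 11, ELAVL2 held 9, ELAVL4 held 8, RBFOX2 held 6, PTBP2 held 4, SRRM4 and RBFOX1 held 3 each, and NOVA1 and PTBP1 held 1 each.

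The assay was bulk ATAC-seq, where a transposase cuts and tags open DNA. The cells came from cerebral organoids of the chimpanzee induced pluripotent stem cell line SandraA, collected at week 8 of culture, give or take 3 days. The 4 sorted populations were BCL11B-positive neurons (N), basal intermediate progenitors (bIP), basal radial glia (bRG) and apical radial glia (aRG), with 2 libraries each. All of them come from 1 cell line, and the labels do not say whether libraries 1 and 2 were separate cultures, and p-values therefore cover no more than the differences among these libraries. Library totals lay between 24913928 and 34845193 counts. Values are in CPM (counts divided by library size scaled with TMM factors), at a region or summed over all regions of a gene, here called its locus. Regions join a locus because they are near the gene, which does not show that they control it, and accessibility is not a transcript level. Distances were taken to gene starts, so a region inside a gene but closer to another gene's start would join that other locus. In a sorted bulk sample, more cells with an open region and a more open region per cell cannot be told apart.

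Neuronal pre-mRNAs carry many exons that other cells skip, and a small set of RNA-binding proteins decides which of them are kept. SRRM4, RBFOX and NOVA proteins mostly favour neuronal exon choices, ELAVL proteins bind U-rich stretches and stabilise transcripts or alter their splicing, and PTBP proteins mostly hold neuronal exons back. In the mammalian cortex PTBP1 is typical of progenitors, PTBP2 and SRRM4 come on as neurons form, and RBFOX3 is the NeuN antigen used to mark neurons.

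Marker loci separated the radial glia from N, and followed the bIP and neuron labels in part. In bRG against aRG, 0 of 10 radial glia marker loci were called, so these markers did not tell basal from apical radial glia. Of 10 radial glia marker loci, 10 fell in N against aRG, with summed levels of 277 to 315 CPM in N libraries and 1152 to 1275 CPM in aRG libraries. Of 8 basal intermediate progenitor markers, 5 rose and 1 fell in bIP against aRG, with 529 to 538 CPM in bIP libraries and 302 to 337 CPM in aRG libraries. Of 10 neuronal markers, 6 rose and 4 (BCL11B, TUBB3, MAP2 and GAP43) fell in N against aRG, with 877 to 899 CPM in N libraries and 661 to 745 CPM in aRG libraries. The same markers summed to 883.4 to 899.5 CPM in bIP libraries, so their sum did not separate N from bIP. In N against bIP 3 of them rose and 2 fell. The gene in the label of the neurons, BCL11B, had 51.4 and 45.1 CPM in N, 70.8 and 69.3 in bIP, 63.9 and 54.9 in bRG, and 68.9 and 60.7 in aRG, with N against aRG at -0.43 ± 0.12 (adjusted p = 0.011). Over all loci, 28.8% rose and 33.7% fell in N against aRG, 18.1% and 29.8% in bIP against aRG, and 22.3% and 17.8% in N against bIP. Of other cell types, 6 of 8 loci of inhibitory neurons and 3 of 6 of mesenchyme fell in N against aRG. Of 5 choroid plexus and hem loci 1 rose and 2 fell, near the shares of all loci. Of 3 pluripotency loci 2 fell, at low summed levels of 0.991 to 1.37 CPM in N and 2.47 to 2.93 CPM in aRG libraries. Summed mesenchymal markers had 50.9 to 52.8 CPM in N and 75.2 to 93.0 CPM in aRG libraries, and the part of these differences in the results at the 10 genes was not tested.

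Accessibility at the 10 genes differed between populations mainly in bIP and N against the radial glia. Features with an adjusted p under 0.05 (edgeR's quasi-likelihood test, Benjamini-Hochberg over all features tested) are described as called, and "rose" and "fell" are used for called features only. The filter on low counts kept 75 of the 83 regions. The 8 untested ones were 6 of the 9 at ELAVL2 and 1 each at RBFOX1 and PTBP2. In the joint test of the 4 populations 53 of the 75 regions were called, against 73.4% of all regions tested, and 9 of the 10 loci were called, against 66.8% of all loci. PTBP1 was the locus not called. The share of called member regions was thus near that of the whole table.

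**Figure D1:**
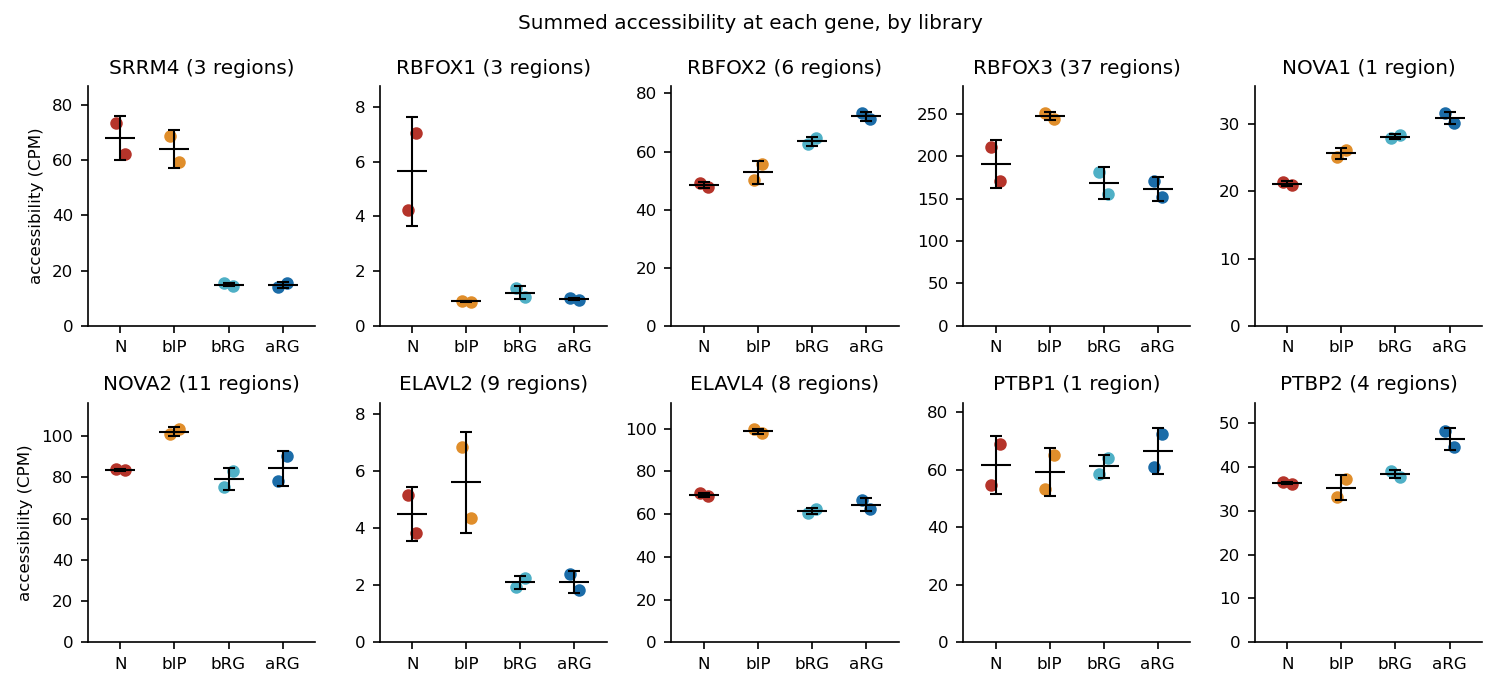
Summed accessibility of each of the 10 genes in CPM (vertical axes, each starting at 0) for N, bIP, bRG and aRG. Points are libraries, horizontal bars are means and vertical bars are SDs of 2 libraries; SRRM4 separates N and bIP (59.3 to 73.5 CPM) from bRG and aRG (14.2 to 15.7 CPM), RBFOX1 is high in N, and PTBP1 overlaps in all populations.

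Against apical radial glia, bIP showed more gains than losses in the regions of these genes, of which RBFOX3 alone held 37 of the 75 tested and gave 20 rises and 2 falls. Of the 75 tested regions 41 were called, against 47.2% of all regions: 34 rose and 7 fell in bIP, against 24.5% and 22.7% of all regions. The median log2 fold change was 0.51 over the member regions and 0.05 over all regions. At the loci, SRRM4, RBFOX3, ELAVL2 and ELAVL4 rose and RBFOX2 and PTBP2 fell, which made 6 called loci with a median of 0.07 over the 10. Over all loci 47.9% were called, 18.1% as rises and 29.8% as falls. The 4 rises and 2 falls became 5 rises and 1 fall with loess offsets or with library totals alone, which also moved the median over all loci to -0.02 and -0.01, against -0.18 with TMM. Against bRG 34 regions rose and 7 fell in bIP, and over all regions 42.9% were called, 22.5% as rises and 20.4% as falls. At the loci 5 rose and 0 fell against bRG (5 and 1 with DESeq2 size factors), and over all loci 40.0% were called, 17.5% as rises and 22.5% as falls.

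Neurons against apical radial glia gave a more even split. In N, 49 of the 75 regions were called, against 68.9% of all regions: 31 rose and 18 fell, against 37.2% and 31.8%. At the loci, SRRM4, RBFOX1 and ELAVL2 rose and RBFOX2, NOVA1 and PTBP2 fell, and over all loci 62.5% were called, 28.8% as rises and 33.7% as falls. These 3 rises and 3 falls became 6 and 2 with loess offsets and 4 and 2 with library totals alone. Of all 40618 loci tested then, 12337 rose and 12341 fell with loess offsets, and 13052 rose and 11735 fell with library totals. Against bRG, 34 regions rose and 16 fell in N, and over all regions 67.9% were called, 37.4% as rises and 30.4% as falls. At the loci 3 rose and 2 fell against bRG (6 and 2 with loess offsets), and over all loci 59.2% were called, 29.9% as rises and 29.3% as falls.

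Between neurons and basal intermediate progenitors, losses were the more frequent call. In N against bIP, 11 regions rose and 19 fell, and over all regions 47.6% were called, 25.0% as rises and 22.6% as falls. Here the median was -0.33 over the member regions and -0.01 over all. The count of 30 called regions fell to 19 without bIP 2 and to 20 without N 2. RBFOX1 was the 1 locus that rose, and RBFOX3 and ELAVL4 fell, and over all loci 40.1% were called, 22.3% as rises and 17.8% as falls. With the replicate number as a block, with DESeq2, with its size factors or with library totals alone, NOVA1 and NOVA2 were called lower as well, which makes 5 loci.

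Basal and apical radial glia were not told apart at any of the 10 genes. In bRG against aRG edgeR called 0 of 75 regions and 0 of 10 loci (background 0.0% for both), DESeq2 called 0 as well, and 4 member regions and 1 member locus had an unadjusted p under 0.05. The locus log2 fold changes of bRG against aRG lay between -0.27 ± 0.10 (SE) at PTBP2 and 0.30 ± 0.35 at RBFOX1.

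**Figure D2:**
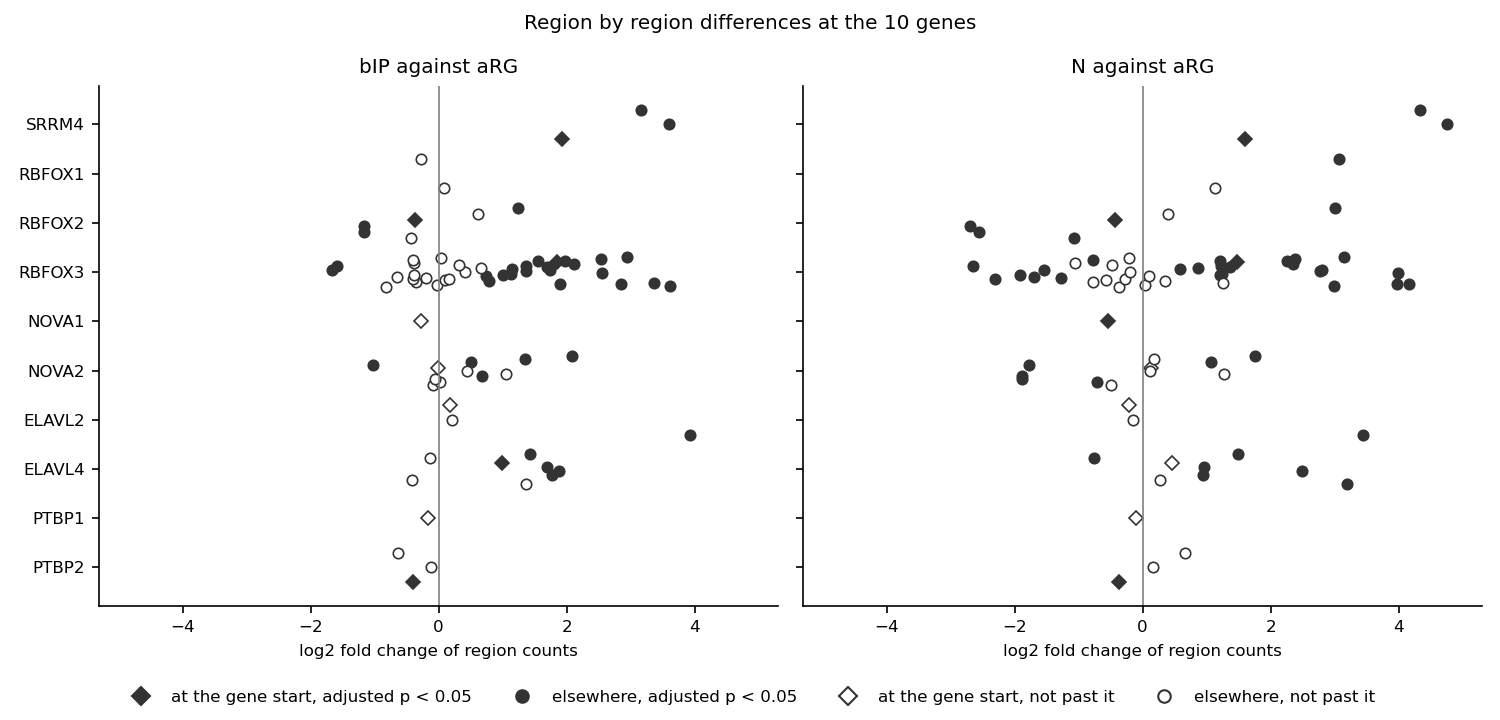
Log2 fold changes of region counts (horizontal axes) of bIP against aRG (left) and N against aRG (right) for the 75 tested regions, by gene. Diamonds are regions at distance 0 of the gene and circles are all others, filled where the adjusted p is under 0.05; at RBFOX3, RBFOX2 and NOVA2 rises and falls of N against aRG occur within 1 gene, while the 3 SRRM4 regions all rise.

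SRRM4, which promotes the inclusion of neuronal microexons, had the largest rise of the 10 loci in bIP against aRG. The locus had 73.5 and 62.3 CPM in N libraries, 68.9 and 59.3 in bIP, 15.5 and 14.5 in bRG, and 14.2 and 15.7 in aRG. The N and bIP libraries overlapped each other, as did the bRG and aRG libraries, and the lowest bIP library lay far above the highest radial glia library. The log2 fold change was 2.10 ± 0.13 in bIP against aRG (SE; edgeR adjusted p = 2.6e-05) and 2.18 ± 0.13 in N against aRG (adjusted p = 3.4e-06), or 4.29-fold and 4.55-fold. N and bIP differed by 0.08 ± 0.12 (adjusted p = 0.62), so these neighbours in the order of levels did not differ beyond their spread.

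The 3 SRRM4 regions did not share 1 order of populations. Start regions are those with a distance of 0 in the deposited table. The start region of SRRM4, chr12:116626854-116629271 in panTro6, had 43.3 and 40.3 CPM in N, 55.4 and 49.6 in bIP, 14.3 and 13.1 in bRG, and 13.5 and 14.2 in aRG. It was highest in bIP, and its difference of N against bIP was -0.33 ± 0.11 (adjusted p = 0.030), a call that ended with loess offsets, with DESeq2, and without bIP 1 or N 2. The adjoining region chr12:116629364-116630326, 791 bp from the start, had 19.1 and 14.2 CPM in N, 8.27 and 6.51 in bIP, 0.734 and 0.747 in bRG, and 0.391 and 0.838 in aRG. It was highest in N, with a log2 fold change of 4.76 ± 0.38 in N against aRG (adjusted p = 5.7e-07) and 1.17 ± 0.30 in N against bIP (adjusted p = 0.0063, or 0.098 without bIP 2). Of the 4 deposited peak lists only that of N held a peak there. The remaining region, 2433 bp away, rose by 4.34 in N against aRG and by 1.18 in N against bIP. Together the 2 regions beside the start had 26.1 ± 5.81 CPM in N, 11.6 ± 2.69 in bIP, 1.24 ± 0.17 in bRG and 1.09 ± 0.60 in aRG (SD, n = 2), so that the start region held 61.5% of the locus in N and 92.7% in aRG. Within 100 kb of the position to which the SRRM4 distances point, 14 of 18 tested regions with other closest genes also rose in N against aRG and 0 fell. Over all regions 37.2% rose and 31.8% fell. Whether some of these neighbouring regions lie inside the SRRM4 gene was not examined.

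**Figure D3:**
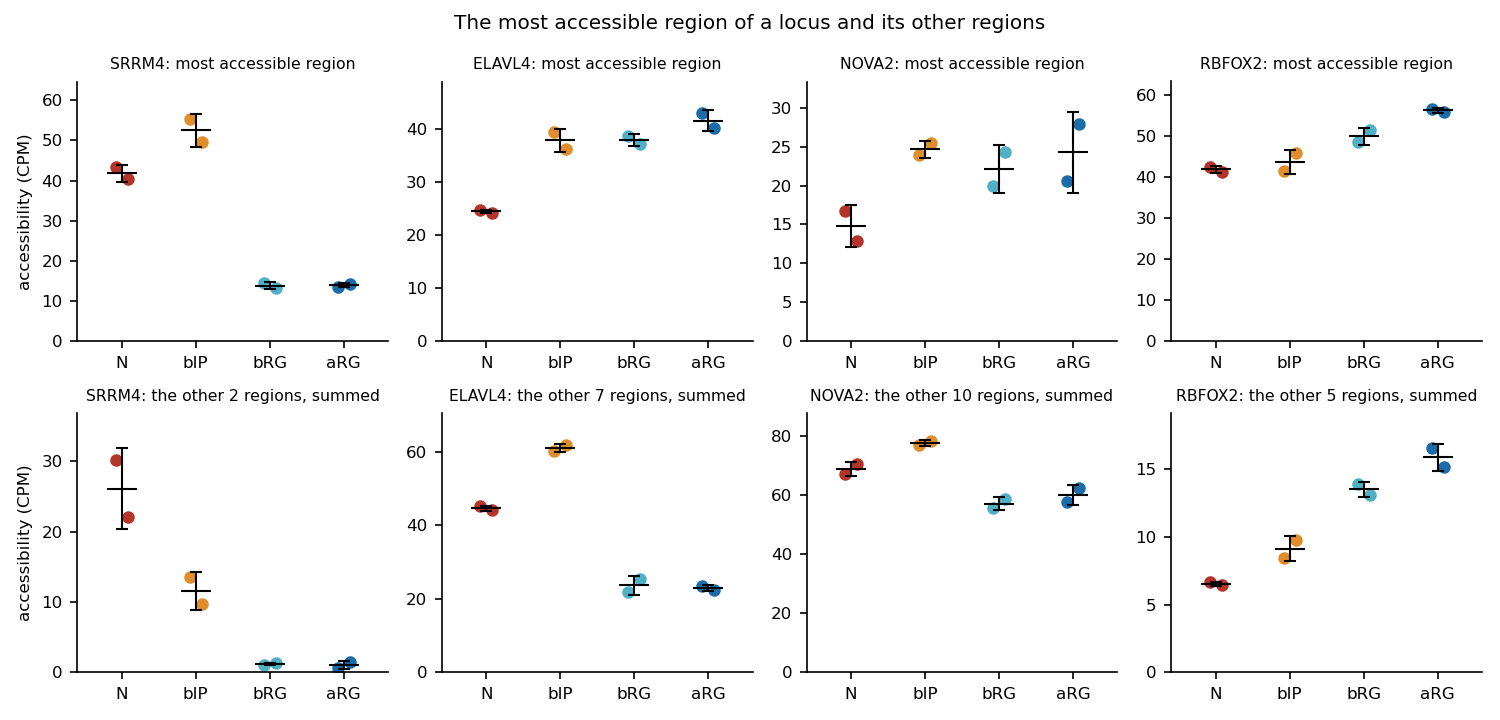
Accessibility in CPM (vertical axes from 0) of the most accessible region of 4 loci (top) and the sum over their other regions (bottom) in N, bIP, bRG and aRG. Points are libraries and bars are means and SDs of 2 libraries; at ELAVL4 the top region is lowest in N (24.2 to 24.6 CPM) while the other 7 regions sum to 44.2 to 45.2 CPM in N and 22.4 to 23.6 CPM in aRG.

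The RBFOX proteins bind 1 RNA element in introns and promote or block the exon beside it, depending on the side on which they sit. The 3 genes behaved differently from each other. RBFOX1, the family member of neurons, heart and muscle, was the gene whose rise was called in N but not in bIP. Its locus had 4.24 and 7.05 CPM in N, 0.906 and 0.881 in bIP, 1.38 and 1.05 in bRG, and 1.02 and 0.964 in aRG. Both N libraries lay above the 6 others, which stayed between 0.881 and 1.38 CPM. The log2 fold change was 2.50 ± 0.33 in N against aRG (adjusted p = 0.00014) and 2.65 ± 0.33 in N against bIP (adjusted p = 0.00040), and it was -0.15 ± 0.37 in bIP against aRG (adjusted p = 0.76). The level rests on a single region, chr16:7109045-7110115, at a distance of 20348 bp, with 113 and 147 counts in N libraries and 10 to 33 counts in the 6 others. It rose by 3.07 ± 0.40 in N against aRG, and the deposited list of N was the only 1 of 4 with a peak there. The nearest region, 1603 bp away, had 13 and 20 counts in N and 2 to 10 in the other libraries, and its N against aRG difference of 1.13 ± 0.56 was not called (adjusted p = 0.088, but 0.034 without N 1). It was called in N against bRG (2.18 ± 0.60, adjusted p = 0.0061) and in the joint test (adjusted p = 0.031). Within 100 kb of the position to which the RBFOX1 distances point, 8 tested regions had other closest genes. Of these, 4 rose and 3 fell in N against aRG, and over all regions 37.2% rose and 31.8% fell.

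RBFOX2, the most broadly expressed of the family, fell in N and in bIP against aRG. Its locus had 49.2 and 47.7 CPM in N, 50.1 and 55.6 in bIP, 62.5 and 64.6 in bRG, and 73.3 and 71.1 in aRG, and no N library overlapped a radial glia library. The log2 fold change was -0.58 ± 0.10 in N against aRG (adjusted p = 0.00058) and -0.45 ± 0.10 in bIP against aRG (adjusted p = 0.0043, but 0.061 with DESeq2). N and bIP differed by -0.13 ± 0.10 (adjusted p = 0.32), and bIP and bRG by -0.27 ± 0.09 (adjusted p = 0.050 and not called, 0.029 with the replicate block). The start region, chr22:18960271-18962151, held 86.5% of the locus in N and 78.0% in aRG and fell by 0.43 ± 0.09 in N against aRG, whereas with loess offsets the value was 0.02.

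The other RBFOX2 regions changed more and in both directions. The region 10562 bp away, chr22:18950138-18950943, had 1.18 and 0.980 CPM in N, 2.83 and 3.45 in bIP, 6.49 and 5.33 in bRG, and 7.81 and 6.33 in aRG. It fell by 2.70 ± 0.31 in N against aRG, and by 1.53 ± 0.31 in N against bIP. On the other side of the start, chr22:18973548-18974338 had 2.73 and 2.19 CPM in N, 0.870 and 0.574 in bIP, 0.323 and 0.339 in bRG, and 0.352 and 0.251 in aRG. It rose by 3.01 ± 0.41 in N against aRG. The falling region had a peak in the bIP, bRG and aRG lists, and the rising region had a peak in the N list only.

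RBFOX3, whose protein is the NeuN antigen, had the most regions of the 10 genes and its highest level in bIP. The locus had 210 and 170 CPM in N, 250 and 243 in bIP, 181 and 155 in bRG, and 171 and 151 in aRG. The bIP libraries lay above all others, and 1 N library lay within the range of the radial glia. The rise in bIP was 0.61 ± 0.13 against aRG (adjusted p = 0.0051) and 0.55 ± 0.13 against bRG (adjusted p = 0.0094, but 0.087 without bRG 2 and 0.054 without bIP 1). N against bIP was -0.37 ± 0.13 with an adjusted p of 0.04998, a call that ended with loess offsets, at distance 0, and without any 1 of aRG 1, aRG 2, bRG 1, bRG 2, bIP 1 and N 2 (adjusted p up to 0.47). N against aRG was 0.24 ± 0.13 (adjusted p = 0.15), but 0.0498 with the replicate block and 0.00021 at a log2 fold change of 0.84 when regions beyond 50 kb were left out.

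The sum at RBFOX3 hides opposite changes along the locus. In bIP against aRG 20 of its 37 regions rose and 2 fell, against 24.5% and 22.7% of all regions. In N against aRG 18 rose and 7 fell, against 37.2% and 31.8%. In N against bIP 5 rose and 9 fell, against 25.0% and 22.6%. Calls in both directions are thus common over the whole table and not particular to RBFOX3. The most accessible region, chr17:72525455-72527932 at 113.3 kb, had 17.1 and 17.4 CPM in N, 34.8 and 37.9 in bIP, 43.2 and 34.8 in bRG, and 45.8 and 37.5 in aRG. It fell by 1.27 ± 0.14 in N against aRG, with no overlap between N and the other populations. The largest rise, at chr17:72485779-72487199 and 153.4 kb, was 4.15 ± 0.44: this region had 11.1 and 12.9 CPM in N, 6.74 and 2.99 in bIP, 1.59 and 1.43 in bRG, and 0.469 and 0.880 in aRG. The largest fall, at chr17:72607800-72608665 and 32.87 kb, was -2.65 ± 0.38: it had 1.39 and 0.705 CPM in N, 1.85 and 2.60 in bIP, 8.07 and 5.46 in bRG, and 7.58 and 5.87 in aRG. The narrow region at distance 0, chr17:72642195-72642386 with a width of 192 bp, had 3.00 and 2.08 CPM in N, 3.88 and 2.72 in bIP, 0.998 and 0.950 in bRG, and 0.703 and 1.13 in aRG. It rose by 1.85 ± 0.37 in bIP against aRG and by 1.48 ± 0.37 in N against aRG, and the N rise was not called without aRG 1 (adjusted p = 0.0503). At the far end, chr17:72674967-72676176 at 32.53 kb, chosen after its values were seen, had 22.7 and 19.0 CPM in N, 18.7 and 17.4 in bIP, 2.94 and 3.09 in bRG, and 2.23 and 2.47 in aRG. N and bIP were both far above the radial glia there, at 3.15 ± 0.22 and 2.94 ± 0.22 against aRG.

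**Figure D4:**
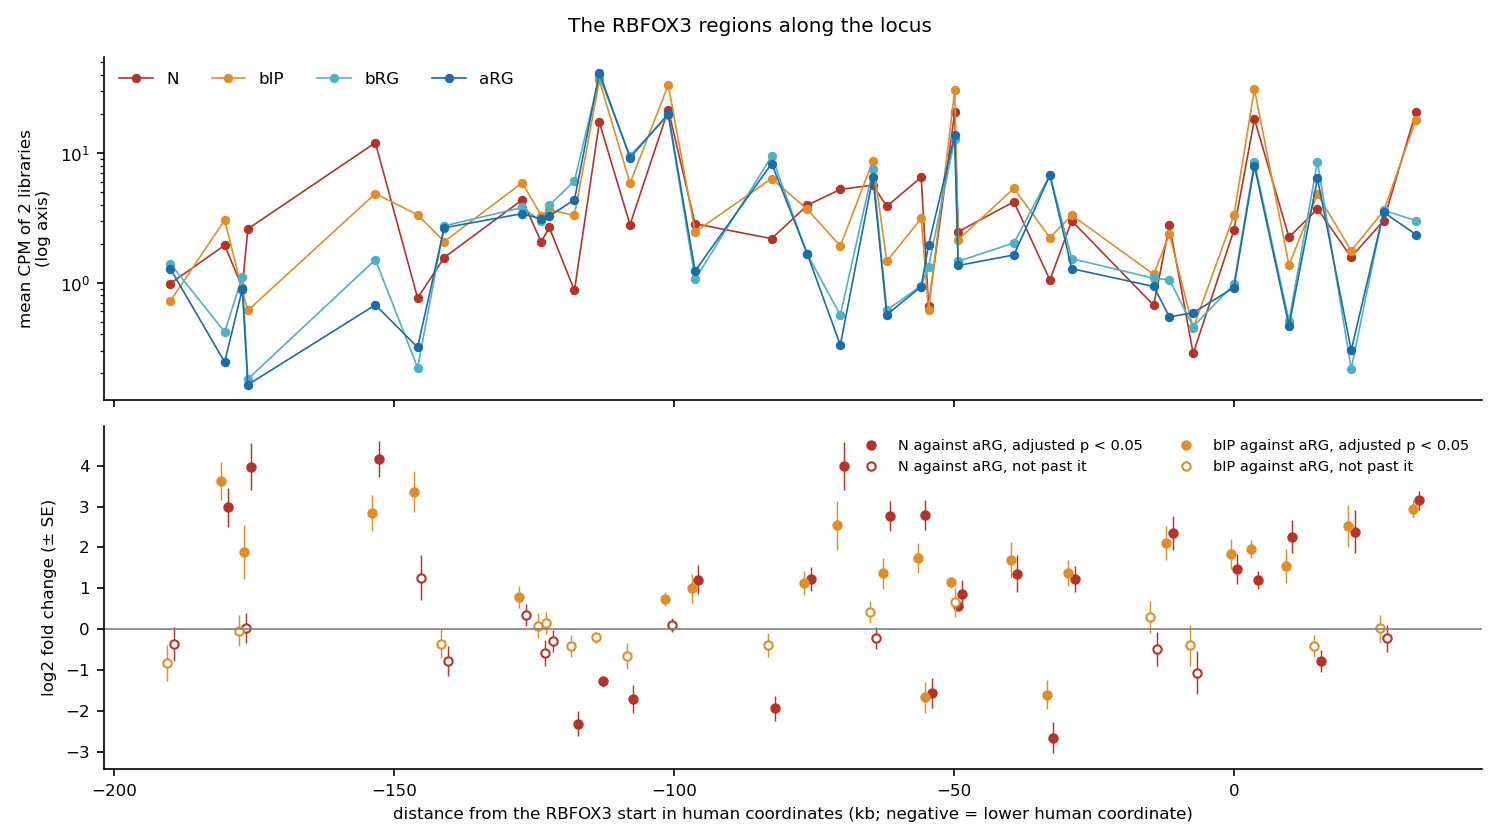
The 37 regions of RBFOX3 by distance in kb from the position to which their distances point, in human coordinates (horizontal axis). Top: mean CPM of 2 libraries on a log axis for N, bIP, bRG and aRG; bottom: log2 fold changes ± SE of N and of bIP against aRG, filled where the adjusted p is under 0.05, with rises up to 4.15 and falls to -2.65 in N.

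The NOVA proteins are neuronal KH-domain factors that set the splicing of synaptic transcripts. NOVA1 had a single region, at the gene start, chr14:7400981-7403634, with 21.4 and 21.0 CPM in N, 25.1 and 26.2 in bIP, 27.9 and 28.4 in bRG, and 31.6 and 30.3 in aRG. The libraries of the 4 populations did not overlap and stood in the order N, bIP, bRG, aRG from low to high. N against aRG was -0.55 ± 0.11 (adjusted p = 0.0017 among loci). As a locus it kept its call under every alternative, at -0.72 to -0.41. With loess offsets over regions the same region gave -0.03, not called. Neighbours in the order were not called, with adjusted p = 0.068 for N against bIP, although the replicate block gave 0.038 for it and 0.035 for bIP against aRG, where the adjusted p was 0.063 without the block.

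NOVA2, the family member of neocortical neurons, was highest in bIP. The locus had 83.9 and 83.3 CPM in N, 101 and 104 in bIP, 75.5 and 82.9 in bRG, and 78.3 and 90.3 in aRG, with both bIP libraries above the rest. bIP exceeded bRG by 0.37 ± 0.10 (adjusted p = 0.020, but 0.058 to 0.15 without bRG 1, bIP 1 or bIP 2). The differences of bIP against aRG (0.28 ± 0.10, adjusted p = 0.053) and of N against bIP (-0.29 ± 0.10, adjusted p = 0.052) were not called, and both had an adjusted p of 0.022 with the replicate block. N against aRG was -0.01 ± 0.10, and 0.31 with loess offsets.

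Within NOVA2, 8 of 11 regions were called in the joint test, a share near the 73.4% of all regions. In N against aRG 2 rose and 4 fell, against 37.2% and 31.8% of all regions. The start region, chr19:43926298-43927172, had 19.9 and 20.2 CPM in N, 14.6 and 21.8 in bIP, 17.3 and 20.0 in bRG, and 16.9 and 19.7 in aRG, and the populations overlapped except that both N libraries lay above both aRG libraries. N against aRG was 0.13 ± 0.19 there (adjusted p = 0.54, but 0.0041 at 0.69 with loess offsets). In chr19:43935660-43936408, at 8993 bp, values were 3.22 and 3.10 CPM in N, 4.93 and 3.03 in bIP, 1.11 and 0.984 in bRG, and 0.860 and 1.01 in aRG. This region rose by 1.76 ± 0.34 in N and by 2.09 ± 0.34 in bIP against aRG, with peaks in the N and bIP lists only. In chr19:43908630-43909178, at 17344 bp, N had 0.991 and 0.627 CPM, against 3.08 and 2.76 in bIP, 2.79 and 2.34 in bRG, and 3.24 and 2.85 in aRG. It fell by 1.89 ± 0.33 in N against aRG and by 1.83 ± 0.33 in N against bIP, while bIP and aRG differed by -0.06 ± 0.30. No deposited list held a peak in this region.

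The ELAVL proteins ELAVL2 (HuB) and ELAVL4 (HuD) are among the earliest neuronal RNA-binding proteins. ELAVL4 rose in bIP and was lower again in N. Its locus had 69.8 and 68.3 CPM in N, 99.7 and 98.0 in bIP, 60.5 and 62.6 in bRG, and 66.5 and 62.5 in aRG. The bIP libraries lay clear of all others, and the N libraries lay just above the radial glia. bIP exceeded aRG by 0.62 ± 0.09 (adjusted p = 0.00064) and bRG by 0.68 ± 0.09 (adjusted p = 0.00043), N against bIP was -0.52 ± 0.09 (adjusted p = 0.0019, or 0.062 at distance 0 alone), and N against aRG was 0.10 ± 0.09 (adjusted p = 0.36, but 0.0039 at 0.39 with loess offsets).

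At ELAVL4 the most accessible region and the others went opposite ways in N. The most accessible region, chr1:48892530-48894426 at 612 bp from the start, had 24.6 and 24.2 CPM in N, 39.4 and 36.2 in bIP, 38.7 and 37.1 in bRG, and 42.9 and 40.1 in aRG. It fell by 0.77 ± 0.10 in N against aRG (adjusted p = 3.0e-05; by 0.28 with loess offsets, adjusted p = 0.028) and was not called in bIP against aRG. The other 7 regions together had 44.7 ± 0.73 CPM in N, 61.1 ± 1.04 in bIP, 23.7 ± 2.59 in bRG and 23.0 ± 0.87 in aRG (SD, n = 2). Against aRG, 5 of the 8 regions rose and 1 fell in N, and 5 rose and 0 fell in bIP. Over all regions 37.2% rose and 31.8% fell in N, and 24.5% rose and 22.7% fell in bIP. The region at distance 0, chr1:48891512-48891980, had 12.3 and 10.4 CPM in N, 16.8 and 15.9 in bIP, 8.10 and 7.40 in bRG, and 9.61 and 6.87 in aRG, and rose by 0.98 ± 0.22 in bIP against aRG (adjusted p = 0.0029). Its N against aRG difference of 0.46 ± 0.22 was not called (adjusted p = 0.081). It was called with the replicate block (adjusted p = 0.028), with loess offsets (1.05, adjusted p = 0.00043), with library totals alone (adjusted p = 0.027) and without aRG 1 (adjusted p = 0.045). The largest rise, 3.18 ± 0.54 in N against aRG at chr1:48873726-48874512, rests on 32 and 43 counts in N and 2 and 5 counts in aRG. No deposited list held a peak there.

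ELAVL2 was near closed at its start in every population. The start region, chr9:23826058-23828696, had 12 and 10 counts in N, 15 and 12 in bIP, 9 and 11 in bRG, and 14 and 8 in aRG libraries. The locus had 5.17 and 3.84 CPM in N, 6.85 and 4.36 in bIP, 1.94 and 2.27 in bRG, and 2.38 and 1.84 in aRG, with N and bIP above the radial glia and overlapping each other. It rose by 1.41 ± 0.30 in bIP (adjusted p = 0.0048) and by 1.09 ± 0.30 in N (adjusted p = 0.011) against aRG. The rises rested on 1 region 60967 bp away, chr9:23767049-23768266, with 3.28 and 1.57 CPM in N, 4.39 and 2.49 in bIP, 0.176 and 0.441 in bRG, and 0.274 and 0.168 in aRG. It rose by 3.44 ± 0.58 in N and by 3.93 ± 0.57 in bIP against aRG, and the bIP list alone held a peak there. Without regions beyond 50 kb the locus differences were 0.14 in N and 0.20 in bIP (adjusted p = 0.69 and 0.59), and the N rise was not called without aRG 2 or N 1 either.

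PTBP1, which represses neuronal exons in progenitors and most other cells, showed no called difference in accessibility between the populations. Its single region, at the start, chr19:664649-666002, had 54.6 and 68.7 CPM in N, 53.4 and 65.2 in bIP, 58.3 and 64.0 in bRG, and 60.8 and 72.2 in aRG. All 4 populations overlapped, and library 2 was above library 1 in each. N against aRG was -0.11 ± 0.15 (adjusted p = 0.54 among loci), and the locus gained no call under any alternative. Tested among regions it was -0.11 ± 0.13 (adjusted p = 0.46), but 0.30 with loess offsets (adjusted p = 0.024). Without bIP 2 the region gave -0.29, where the median over all regions was -0.03 in place of 0.13. Per kb of region PTBP1 was the most accessible of the 10, with 45.5 CPM per kb in N, 43.8 in bIP, 45.2 in bRG and 49.1 in aRG. The others lay between 0.209 CPM per kb at ELAVL2 in bRG and 17.4 at SRRM4 in N.

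PTBP2, the neuronal paralogue, was highest in apical radial glia. Its locus had 36.4 and 36.1 CPM in N, 33.2 and 37.3 in bIP, 39.0 and 37.6 in bRG, and 48.1 and 44.6 in aRG, and the aRG libraries lay above all others. N against aRG was -0.35 ± 0.10 (adjusted p = 0.013) and bIP against aRG was -0.40 ± 0.10 (adjusted p = 0.011), while N and bIP differed by 0.04 ± 0.10 (adjusted p = 0.77). The bRG and aRG levels differed by -0.27 ± 0.10 and were not called. Both calls against aRG ended with loess offsets, with library totals alone, with DESeq2 and without aRG 1. The bIP call also ended without bIP 1, at -0.32. The start region, chr1:95533811-95535722, held 97.1% of the locus in N and 98.1% in aRG, and its N against aRG value was -0.37 ± 0.10, or 0.11 with loess offsets.

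The regions were also described by distance, in N against aRG. Called shares were 55.6% at distance 0, 73.2% up to 50 kb and 56.0% beyond, against 52.6%, 69.2% and 73.9% over all regions of these classes. Of the 9 tested regions at distance 0, 2 rose and 3 fell, with a median log2 fold change of -0.11, and over all 16142 regions at distance 0 it was -0.25 with 11.1% rising and 41.5% falling. Of 41 regions up to 50 kb away, 20 rose and 10 fell with a median of 0.86, against 0.22 over all such regions. Of 25 regions farther away, 9 rose and 5 fell with a median of 0.16, against 0.52 over all. RBFOX3 held 37 of the 75 tested regions, and 23 of its 37 lay within 100 kb of its start. It thus gave most of the 25 regions farther away, and the values of that class largely describe this 1 gene. Among the 53 regions called in the joint test, 20 were highest in N, 18 in bIP, 5 in bRG and 10 in aRG. Those are 37.7%, 34.0%, 9.43% and 18.9%, and over all called regions the shares were 43.0%, 17.3%, 14.0% and 25.8%. The difference in the bIP share was not tested.

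The deposited peak lists gave a similar picture without replicates. Of the 83 regions 33 overlapped a peak in N, 37 in bIP, 33 in bRG and 32 in aRG, or 39.8%, 44.6%, 39.8% and 38.6%, against 38.1%, 37.4%, 39.2% and 37.7% of all regions. A peak in all 4 lists was found at 18 regions (21.7%, against 17.7% of all regions) and in no list at 28 (33.7%, against 35.6%). Peaks in the N list alone marked 10 regions (12.05%, against 11.3%), in the bIP list alone 6 (7.23%, against 4.54%), and in the bIP, bRG and aRG lists but not N 8 (9.64%, against 6.51%). Most of these shares are near those of the whole table. All 83 regions had a human identifier and 79 had a gorilla one (95.2%, against 94.6% of all regions), and their median width was 866 bp against 858 bp.

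Other RNA-binding genes of the same pathway were counted from lists made for comparison, also with earlier results of these data known. Of 14 other neuron-enriched regulators, 12 were tested, and in N against aRG 9 rose, 1 fell and 2 did not pass, against 28.8% of all loci that rose and 33.7% that fell. The median was 0.80, beside -0.09 over all loci. KHDRBS2, a STAR-family splicing factor, had 16.4 and 19.2 CPM in N and 4.57 and 5.66 in aRG (1.80 ± 0.20). CELF4 had 6.63 and 6.78 CPM in N and 2.31 and 2.14 in aRG (1.59 ± 0.22). MBNL2 was the 1 that fell, at -0.59 ± 0.12. In bIP against aRG 3 rose and 1 fell, against 18.1% and 29.8% of all loci.

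Of 41 broadly expressed or progenitor RNA-binding regulators, 36 were tested, and in N against aRG 1 rose, 20 fell and 15 did not pass, against 28.8% and 33.7% of all loci, with a median of -0.40. CELF1 was the 1 that rose, at 1.94 ± 0.35, with 3.93 and 7.80 CPM in N and 1.45 and 1.59 in aRG. The largest falls were at SRSF1, an SR splicing factor (-3.75 ± 0.38), and HNRNPK (-1.56 ± 0.35), each measured at 1 region. In bIP against aRG 1 rose and 18 fell, against 18.1% and 29.8% of all loci. The 1 that rose was HNRNPK, at 1.58 ± 0.31. Its single region had 0.867 and 0.980 CPM in N, 6.96 and 9.27 in bIP, and 3.32 and 2.10 in aRG.

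Accessibility was also counted at 13 genes whose transcripts are known targets of the 10 proteins. In N against aRG 4 of these loci rose and 3 fell with a median of -0.08, near the 28.8%, 33.7% and -0.09 of all loci. GRIN1, an NMDA receptor subunit, rose by 1.08 ± 0.12. REST, the repressor of neuronal genes whose transcript SRRM4 splices in neurons, had 33.1 and 35.5 CPM in N, 41.1 and 48.4 in bIP, and 79.6 and 78.1 in aRG. It fell by 1.20 ± 0.11 in N against aRG.

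Loci of protein-coding genes were ranked by the distance between log2 CPM profiles over the 8 libraries, each centred on its mean, where a smaller distance is a closer profile. Closest to SRRM4 were LRTM2 (0.286), LPAR5 and CLMP. LRTM2 had 125 CPM in N, 116 in bIP, 29.9 in bRG and 26.1 in aRG. Closest to the other members were ANKRD13C (0.547) for RBFOX1, HS6ST3 (0.0527) for RBFOX2, SLC7A5 (0.158) for RBFOX3, TRAF5 (0.0297) for NOVA1, KANK3 (0.183) for NOVA2, SLC16A12 (0.411) for ELAVL2, LGMN (0.169) for ELAVL4 and DCUN1D4 (0.0859) for PTBP2. The distances are small where a member varied little, as at NOVA1, so they do not compare between members.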

How the data were processed

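The authors deposited a table of unscaled counts, 1 column per library, that also names each region's closest gene and a distance in bp (per the file headers). They also deposited 1 consensus peak list per population with a score, a fold enrichment (a ratio) and a -log10 q-value, in the narrowPeak layout; the intervals and the q-value were used. The submitters' processing notes name bcl2fastq 2.20.0, MACS2, panTro6 and hg38 without roles; aligner, counter and annotation: not given in the sources used here. Distances have no stated build. For the 8 genes with regions at a distance above 0 they point to 1 hg38 position per gene within 1 bp, treated here as the gene start. Coordinates are panTro6, counted from 1.

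Rows without a chimpanzee identifier (6725, with a total count of 0) and 7 repeated identifiers were removed, and 211348 regions remained. Counts were also summed by closest gene, at any distance, into 41376 loci. edgeR 4.0.16 in R 4.3.3 (quasi-likelihood F-test, robust, TMM, filterByExpr) tested 198009 regions and 40601 loci in 1 model of the 8 libraries that had no term other than population; the script was tested on simulated data. Differences are log2 fold changes with SE, and calls use a Benjamini-Hochberg adjusted p under 0.05 over all features. The alternatives were DESeq2 1.42.0, its size factors in edgeR, loess offsets, library totals, no filter, a replicate block, each library left out, and loci limited to 50 kb or to distance 0. The labels number the libraries 1 and 2 without stating what they share. Libraries of 1 number deviated together from their population means in all 6 pairs of populations (correlation 0.117 to 0.313), so the numbers were taken to pair the samples, from the data alone. Blocked values stand beside the named differences whose call they change. Counts and shares of called features are from the model without the block unless stated. With the block, the joint test called 156449 of the 198009 regions, against 145417 without it.

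The members, the 3 lists of other genes and the markers were chosen with earlier results of these data known. All 10 members are named, with the region at distance 0 (or the nearest), the region of largest rise and that of largest fall of N against aRG among regions called in the joint test; exceptions are stated, and the most accessible regions were added after values were seen. At most 2 rises and 2 falls are named per list; some that the rule names are not reported here. Protein-coding symbols (14206 matched, with all 10 members) came from a RefSeq gene table of NHGRI_mPanTro3-v2.0, which supplied names and nothing else.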

Additional observations from a re-analysis of the deposited data

How the results depend on the processing

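Over 123 locus and region differences, 1836 values were recomputed under the alternatives. Of these 1709 kept their side of the threshold, 64 lost a call, 56 gained one and 7 turned; a further 104 changed sign with neither value past the threshold and are counted among the 1709. The count of member loci called in N against bIP, 3, was 5 with DESeq2 size factors, with library totals alone, with the replicate block and with DESeq2. The block also raised the count over all 40601 loci, from 16293 to 20252. The count of member regions called in N against bIP, 30, lay between 19 and 30 when libraries were left out in turn, and was lowest without bIP 2. Signs turned at distance 0 for SRRM4 in N against bIP (-0.33), NOVA2 in bIP against bRG (-0.037) and ELAVL2 in N against aRG (-0.22), where the sums hold fewer regions. They turned with loess offsets in N against aRG for the NOVA2 locus (0.31) and for the start regions of RBFOX2 (0.023), PTBP1 (0.30) and PTBP2 (0.11); the cause was not tested. The median log2 fold change over all loci in N against aRG was -0.09 with TMM, -0.19 with DESeq2 size factors, -0.01 with loess offsets and 0.03 with library totals, and over all regions in bIP against aRG it was 0.05 with TMM and 0.22 with library totals. Leaving out bIP 2 also moved the TMM scaling of the other libraries, to a median over all loci of -0.26 in N against aRG. The replicate block gained 10 calls, for RBFOX2, RBFOX3, NOVA1, NOVA2 and ELAVL4, and changed no other call among the 123 differences. Depth limits ELAVL2 and RBFOX1, whose regions at or nearest the start held at most 15 and 20 counts in any library.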
